A study of Mus musculus with 6 samples.

Results

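The enzymes that build serine, glycine, proline and asparagine were followed in 2 populations of mouse stromal cells. The members were 10 genes, chosen as a list by their Entrez identifiers: Phgdh, Psat1 and Psph of serine synthesis, Shmt1, Shmt2 and Mthfd2 of serine and glycine exchange with folate, Aldh18a1 and Pycr1 of proline synthesis, Prodh of proline breakdown, and Asns of asparagine synthesis. All 10 were found among the 22915 genes that could be named on both array designs, and all 10 were well above background on all 6 arrays, so each entered the comparison over 16684 genes. Both populations came from transgenic mice with green fluorescent protein under control of smooth muscle actin (SMA-GFP) and were sorted to lack CD45, which marks leukocytes, and CD31, which marks the lining of vessels. Skin cells, labelled SMA+ and fibroblast-like, had low GFP and came from dermis. Wound cells, labelled SMA+++ and myofibroblast, had high GFP and came from wounds 7 days after injury. Each population was measured on 3 Agilent arrays of 1 colour, with replicates 1 and 2 on design 026655 and replicate 3 (a name given here, since the label has no number) on design 028005. The age, strain and sex of the mice, and whether arrays came from separate animals, are not given in the sources used here, so p-values speak only of the spread among these 6 samples, and that spread may be technical.

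The question of the comparison is what sets the reporter-high cells of wounds apart from the reporter-low cells of skin. Reporter level and injury go together in these groups and cannot be told apart. Serine is made from a glycolytic intermediate in 3 steps, by Phgdh, then Psat1, then Psph. Serine hydroxymethyltransferases turn serine into glycine and hand its carbon to folate, in the cytosol (Shmt1) and in mitochondria (Shmt2), and Mthfd2 carries that carbon further in mitochondria. Proline is made from glutamate by Aldh18a1 and then by pyrroline-5-carboxylate reductases such as Pycr1, and it is broken down by Prodh. Glycine and proline are the most abundant residues of collagen, the protein that dermal fibroblasts and myofibroblasts secrete. Several of these genes are known targets of ATF4, a transcription factor whose protein rises when amino acids are short.

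Arrays of a group correlated at 0.970 to 0.989 across genes and arrays of different groups at 0.901 to 0.923. Each array thus correlated more with its own group than with the other. Wound replicate 3 had the most outlier-marked spots (678) and the lowest share of spots well above background (64.4%). Skin replicate 3, of the same design, had 249 and 72.6%. The number of arrays limits the precision. Acta2, the smooth muscle actin gene, was 26.2-fold higher in wound than in skin cells (log2 4.71, SE 0.16, limma adjusted p = 4.94e-05), which checks the labels. All 9 fibroblast markers listed were well above background on every array of both groups, and 2 of them, Pdgfra and Fbln1, were lower in wound cells (log2 -1.30 and -1.19). Mural cell markers (of pericytes and vessel smooth muscle) moved with the group: 7 of 10 were higher in wound cells and 0 lower, and their summed signal was 33.6 to 65.5 times the array's 75th percentile on skin arrays and 88.8 to 234 times on wound arrays. Keratinocyte markers moved the other way, with 9 of 10 tested members lower in wound cells. Their summed signal was 23.9 to 52.9 on skin arrays and 4.28 to 10.68 on wound arrays. Krt1, a marker of differentiated layers, was well above background on no wound array. Of 9 endothelial markers tested 4 were higher and 0 lower, and of 9 leukocyte markers 0 were higher and 1 lower. The summed leukocyte signal was 23.4 to 117 on skin arrays and 23.1 to 103 on wound arrays. Marker counts in this paragraph stand beside 18.8% called higher and 15.3% called lower over all genes tested. Of 7 glial and melanocyte markers tested 4 were lower in wound cells. Of 2 skeletal muscle markers tested 1 was higher and 0 lower. The summed signal of the 7 muscle markers listed was 0.394 to 1.49 on skin arrays and 2.10 to 8.58 on wound arrays. Of 2 adipocyte markers tested 0 were called. The part of these cells in the values of the enzyme genes was not tested. In such bulk samples, fewer cells of a type and less RNA per cell cannot be told apart.

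Of the 10 enzyme genes, 4 were higher in wound cells (Asns, Psat1, Psph and Mthfd2), 1 was lower (Prodh) and 5 did not pass an adjusted p of 0.05 (Pycr1, Aldh18a1, Shmt1, Shmt2 and Phgdh). Over all genes tested, 34.1% passed in either direction, 18.8% higher and 15.3% lower, so calls are common among these genes whatever their function. The median difference of the 10 genes was 0.35 on the log2 scale, beside 0.05 for all genes tested. Every value below is the log2 of a gene's brightest probe minus the 75th percentile of that array, so a value of 0 is the level of the array's 75th percentile. The 2 designs carry different sets of probes, so a level is read against others of the same design only. Within both designs every wound array lay above every skin array for 5 of the 10 genes (Psat1, Psph, Mthfd2, Pycr1 and Asns), as for 32.4% of all genes, and below for 1 (Prodh), as for 25.0% of all genes. Without a term for the array design the model's SE was 0.61 for each gene, and it called none of the 10 (limma adjusted p from 0.190 to 0.999), and it called 1781 genes in all where the model used here called 5697. Without skin replicate 1 the calls over all genes fell to 3775, and those among the 10 genes to 3, Asns, Psat1 and Prodh, the 3 that also remained without either replicate 3.

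**Figure D1:**
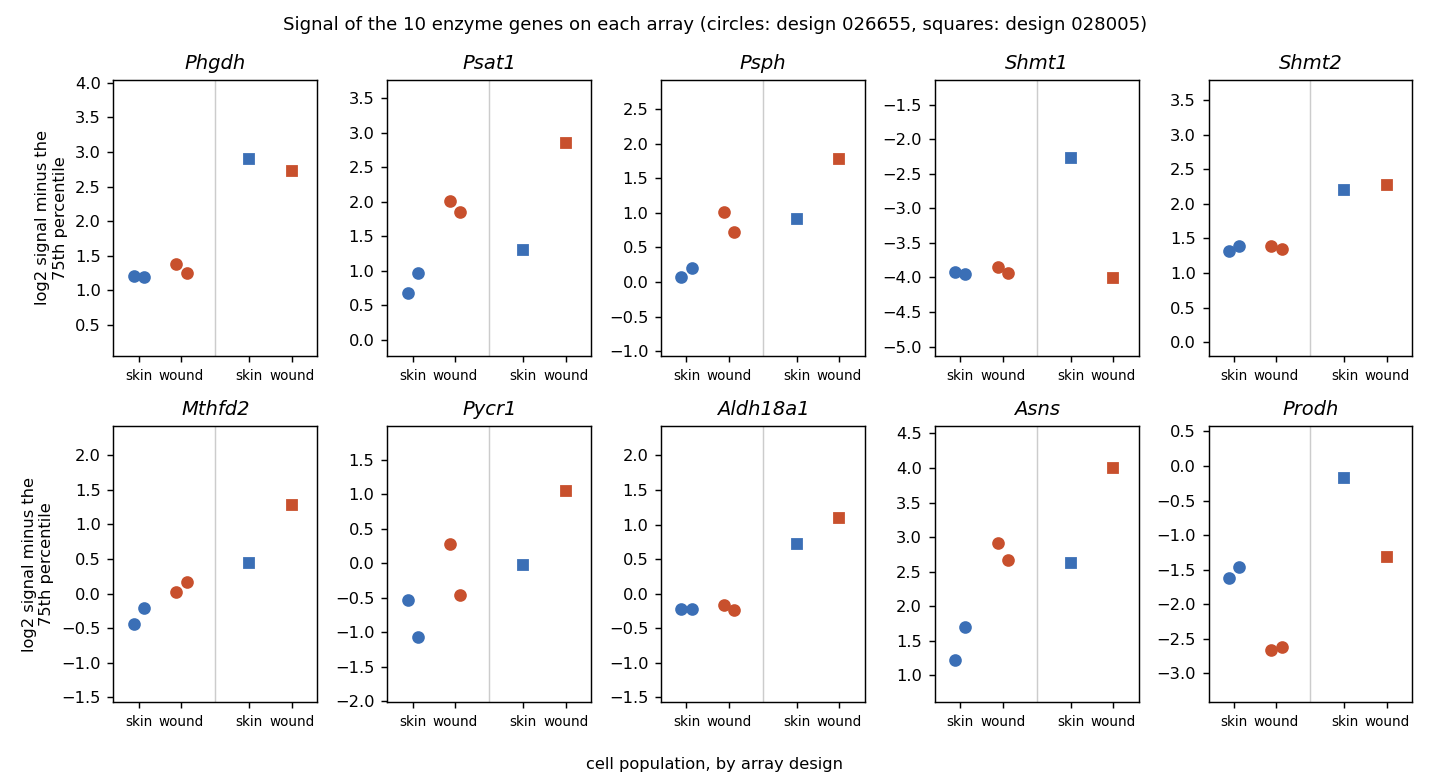
Log2 signal of each of the 10 enzyme genes minus the array's 75th percentile (vertical axis, 4 units tall in each panel) on each of the 6 arrays, for skin (blue) and wound (red) cells, with circles for design 026655 and squares for design 028005. Wound points lie above skin points of the same design for Psat1, Psph, Mthfd2, Pycr1 and Asns and below them for Prodh.

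**Figure D2:**
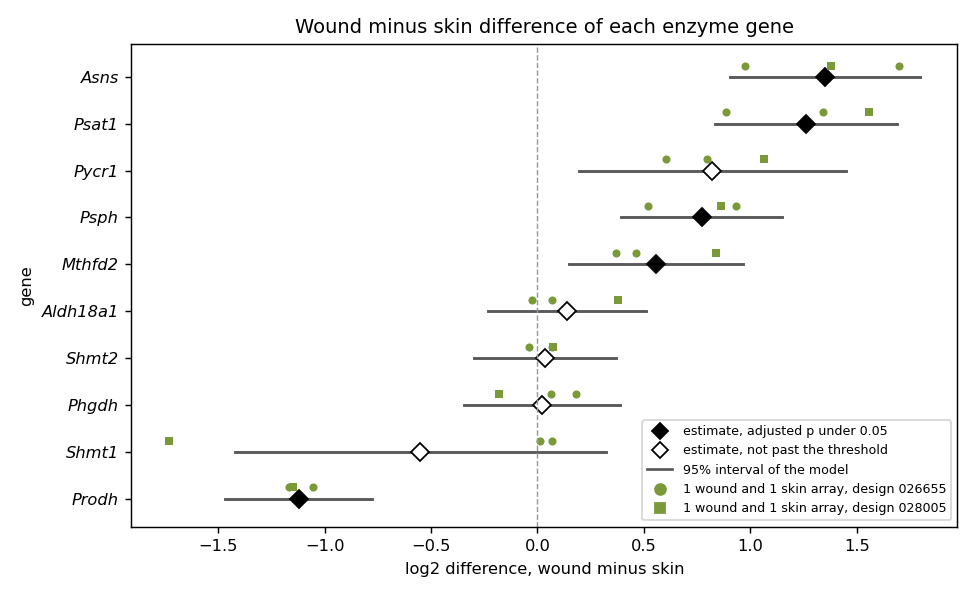
Log2 difference of wound minus skin (horizontal axis) for each enzyme gene, with the model's estimate (diamond, filled where the adjusted p was under 0.05), its 95% interval (line) and the difference of each same-named wound and skin array (green). Asns stands highest at 1.35 and Prodh lowest at -1.12, and the intervals of Aldh18a1, Shmt2, Phgdh and Shmt1 span 0.

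In serine synthesis the first step did not pass the test and the 2 later steps rose in wound cells. Phgdh, the dehydrogenase that commits 3-phosphoglycerate to serine, stood at 1.21, 1.19 and 2.91 on skin replicates 1, 2 and 3 and at 1.39, 1.25 and 2.73 on wound replicates 1, 2 and 3. Wound arrays were slightly higher on design 026655 and slightly lower on 028005, but the brightest probe differed between the designs. On 026655 the probes not used gave -0.010 and -0.011. With the brightest probe of each design the log2 difference was 0.02 (SE 0.15, limma adjusted p = 0.923), a value that mixes probes. Its 95% interval was -0.34 to 0.39, that is 0.788 to 1.31 times the skin level. The difference lay below 0 under normexp, quantile or detected-probe scaling. The 3 probes of Phgdh, each fitted alone on both designs, gave -0.01, -0.07 and -0.06, none of which passed. The interval does not show that the level is equal in both groups.

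Psat1, the aminotransferase of the next step, stood at 0.68, 0.96 and 1.30 on the skin arrays and at 2.02, 1.85 and 2.85 on the wound arrays. Each wound array was above the skin arrays of its design. The gene was 2.40-fold higher in wound than in skin cells (log2 1.26, SE 0.18, limma adjusted p = 0.00263), with 1.11 on design 026655 and 1.56 on 028005. Its dimmer probe gave 0.93 (adjusted p = 0.0133), the same direction in all 3 pairs. Psph, the phosphatase that releases serine, stood at 0.08, 0.20 and 0.92 on the skin arrays and at 1.01, 0.72 and 1.78 on the wound arrays, again with no overlap within a design. It was 1.71-fold higher (log2 0.77, SE 0.16, limma adjusted p = 0.0115), and its other probe gave 0.73 (adjusted p = 0.0118). The call of Psph was lost without skin replicate 1 (0.75, adjusted p = 0.0595) and without either replicate 3 (0.73, adjusted p = 0.0514), while that of Psat1 held with any array left out (adjusted p from 0.00538 to 0.0168).

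Between serine and folate, Mthfd2 was modestly higher in wound cells, Shmt2 did not pass the test and the reading of Shmt1 hung on its probe. Shmt2, the mitochondrial serine hydroxymethyltransferase, stood at 1.32, 1.39 and 2.20 on the skin arrays and at 1.39, 1.36 and 2.27 on the wound arrays, and these overlapped on design 026655. Its log2 difference was 0.04 (SE 0.14, adjusted p = 0.866, 95% interval -0.30 to 0.37), and the sign turned under normexp, quantile and detected-probe scaling and in the authors' deposited table. Mthfd2, the mitochondrial methylenetetrahydrofolate dehydrogenase and cyclohydrolase, stood at -0.43, -0.21 and 0.45 on the skin arrays and at 0.03, 0.16 and 1.29 on the wound arrays. It was 1.47-fold higher (log2 0.56, SE 0.17, limma adjusted p = 0.0467), by 0.42 on design 026655 and 0.84 on 028005. This call is close to the threshold: leaving out any array raised the adjusted p to between 0.0537 and 0.186, and it was 0.0885 with the percentile over detected probes and 0.0804 in the authors' deposited table.

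Shmt1, the cytosolic hydroxymethyltransferase, was dim and its 2 probes disagreed. Probe A_55_P2186584, the brighter on design 026655, stood at -3.92 and -3.95 on skin replicates 1 and 2 and at -3.85 and -3.94 on wound replicates 1 and 2, while on design 028005 it stood at -2.69 for skin and -3.65 for wound. Probe A_52_P673499, the brighter on 028005, stood at -3.43, -3.25 and -2.27 on the skin arrays and at -4.62, -5.84 and -4.00 on the wound arrays, and was not well above background on wound replicate 2. The first probe alone gave a log2 difference of -0.30 (SE 0.23, adjusted p = 0.372) and the second alone gave -1.84 (SE 0.32, adjusted p = 0.00597), both fitted after their values were seen. With the brightest probe of each design the gene did not pass (log2 -0.55, SE 0.36, limma adjusted p = 0.286), and that value mixes a different probe on each design. The mean of both probes gave -1.07 (adjusted p = 0.0116). The authors' deposited table gave -1.13 (adjusted p = 0.00849), which is that mean less 0.0675, an offset shared by all 10 genes, and so is no separate source. Which transcripts each probe reads is not given in the files, and the cause of the disagreement was not tested.

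**Figure D3:**
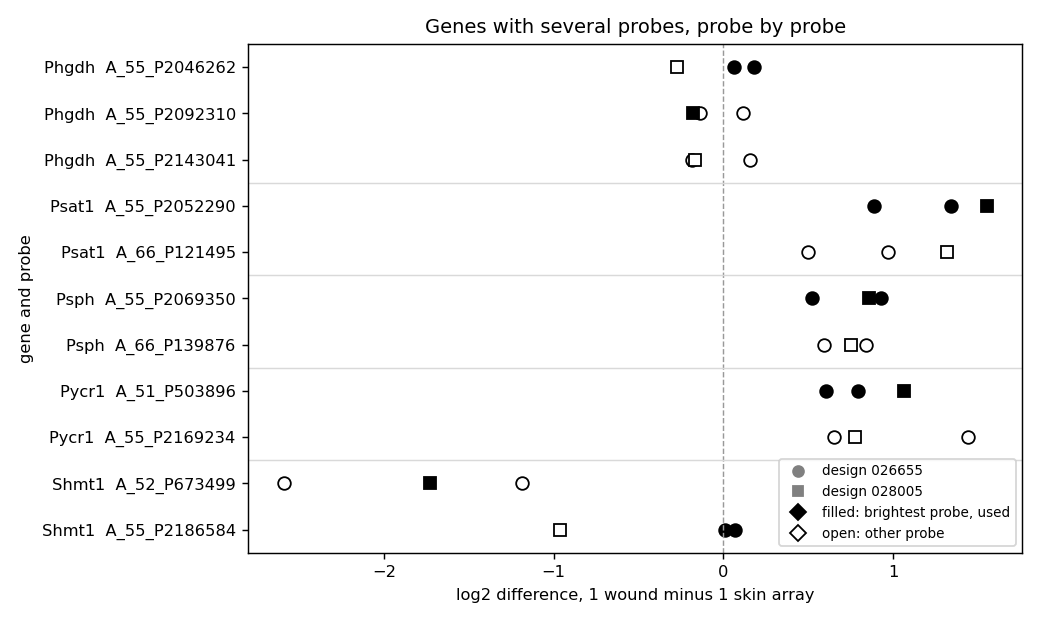
Log2 difference of 1 wound minus 1 skin array (horizontal axis) for each probe of the 5 enzyme genes with several probes, with circles for the 2 pairs on design 026655, squares for the pair on 028005, and filled marks for the probe used on that design. The probes of Psat1, Psph and Pycr1 lie right of 0 in every pair, those of Phgdh lie on both sides, and the 2 probes of Shmt1 separate.

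Among the proline enzymes, Prodh of breakdown was lower in wound cells, while neither Pycr1 nor Aldh18a1 of synthesis passed the test. Aldh18a1, the synthase that takes the first step from glutamate, stood at -0.23, -0.21 and 0.72 on the skin arrays and at -0.16, -0.24 and 1.10 on the wound arrays. These overlapped on design 026655, and the log2 difference was 0.14 (SE 0.15, limma adjusted p = 0.519, 95% interval -0.23 to 0.51), with 0.38 on design 028005 alone. Pycr1, a mitochondrial reductase of the last step to proline, stood at -0.53, -1.07 and -0.02 on the skin arrays and at 0.27, -0.46 and 1.04 on the wound arrays. On design 026655 the lower wound array was only just above the higher skin array. The log2 difference was 0.82 (SE 0.26, limma adjusted p = 0.0528, 95% interval 0.19 to 1.45), which did not pass. It passed with normexp correction (0.77, adjusted p = 0.0205), with genes above background on all 6 arrays (adjusted p = 0.0387), with the mean of its probes (0.89, adjusted p = 0.0287), in the authors' deposited table (0.82, adjusted p = 0.0421), and without wound replicate 2 (1.07, adjusted p = 0.0236).

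Prodh, the mitochondrial dehydrogenase that opens proline breakdown, stood at -1.61, -1.45 and -0.17 on the skin arrays and at -2.67, -2.62 and -1.32 on the wound arrays. All wound arrays were below the skin arrays of their design, by 1.11 on 026655 and 1.15 on 028005. The gene was 2.18-fold lower in wound than in skin cells (log2 -1.12, SE 0.14, limma adjusted p = 0.00171), the lowest adjusted p of the 10 genes. Leaving out any array gave -1.17 to -1.08 and kept the call.

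Asns, which makes asparagine from aspartate with glutamine as nitrogen donor, stood at 1.22, 1.69 and 2.63 on the skin arrays and at 2.91, 2.67 and 4.00 on the wound arrays. It had the largest estimate of the 10 genes, 2.55-fold higher in wound than in skin cells (log2 1.35, SE 0.18, limma adjusted p = 0.00235), with 1.33 on design 026655 and 1.38 on 028005. Leaving out any array gave 1.22 to 1.49 and kept the call.

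The upstream sequences of the 10 genes (RefSeq, build GRCm38.p6, with 250 bases before and 50 after each annotated start) were searched on both strands for TGATGNAA, the core of the composite element through which ATF4 acts on amino acid genes. All 10 genes matched an entry, with 11 windows in all, and 2 windows held a match, those of Asns and Pycr1, beside 3.97% of all 32851 windows. The match is shown in capitals, 5′ to 3′ on the strand of the gene, because these are the only windows of the 10 genes with those letters. Asns was called higher and Pycr1 was not past the threshold. The Asns stretch is the minus strand of chr6:7693210-7693262, with the match 23 to 16 bases before the start, and the Pycr1 stretch is the minus strand of chr11:120643814-120643881, with the match 103 to 96 bases before it.
Asns: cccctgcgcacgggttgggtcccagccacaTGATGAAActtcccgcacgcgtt
Pycr1: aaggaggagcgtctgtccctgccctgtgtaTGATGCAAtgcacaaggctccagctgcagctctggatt
A match describes letters and is no measured binding site, and a window without one says nothing about the factor.

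Unequal change within pairs of enzymes (5 compared, 4 given here) was read as the wound minus skin difference of the first gene less that of the second. With 3 arrays against 3, the two-sided exact permutation test cannot give a p under 0.1. Mthfd2 less Mthfd1, its cytosolic counterpart, was 1.77 (exact permutation p = 0.1, adjusted over the 5 pairs 0.25), with 1.41, 2.07 and 1.83 in the array pairs 1, 2 and 3. Pycr1 less Prodh was 1.94 (exact permutation p = 0.1, adjusted 0.25), with 1.85, 1.77 and 2.21 in the array pairs. That test exchanges arrays across the array designs, and with arrays exchanged only within a design, as tried after seeing the data, both pairs had an exact permutation p of 0.167, again the smallest possible, so neither scheme could pass 0.05. Shmt2 less Shmt1 was 0.59 (exact permutation p = 0.4, adjusted 0.5) but 0.00 and -0.05 in pairs 1 and 2 and 1.8 in pair 3, the pair with the other Shmt1 probe. Aldh18a1 less Aldh4a1, the dehydrogenase that returns the proline intermediate to glutamate, was -0.04 (exact permutation p = 0.8, adjusted 0.8).

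Counts in this and the following lists stand beside 18.8% called higher and 15.3% called lower over all genes tested. The folate genes around these enzymes went both ways. Of 21 tested, 3 were higher, 2 lower and 16 did not pass, with a median of 0.07. The calls numbered 3 in all without skin replicate 1, without wound replicate 1 or without either replicate 3, and with the mean of probes or the authors' deposited table. Aldh1l1, the cytosolic formyltetrahydrofolate dehydrogenase, stood 7.91-fold higher in wound than in skin cells (log2 2.98, SE 0.30, limma adjusted p = 0.000738), but 0.91 with the mean of its probes (adjusted p = 0.160) and 1.11 in the authors' deposited table (adjusted p = 0.145). Aldh1l2, its mitochondrial relative, rose 2.92-fold (log2 1.55, SE 0.22, adjusted p = 0.00257). Mthfd2l, the relative of Mthfd2, rose 1.61-fold (log2 0.68, adjusted p = 0.0144), a call lost without skin replicate 1 (adjusted p = 0.0782), without wound replicate 1 (0.0530) and without either replicate 3 (0.0581). Mthfd1 was 2.32-fold lower (log2 -1.22, SE 0.21, adjusted p = 0.00640), with skin values of 0.85, 1.49 and 2.06 and wound values of -0.11, -0.21 and 1.07. Mthfd1l, the mitochondrial enzyme that releases formate, did not pass (log2 -0.24, adjusted p = 0.232).

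Genes that use serine or glycine were also split, where 5 of 18 were higher, 4 lower, and 9 missed the threshold (median -0.22). The calls numbered 5 in all without wound replicate 1 or either replicate 3, and 4 without wound replicate 2. Sardh, the mitochondrial sarcosine dehydrogenase, which yields glycine, rose 6.03-fold (log2 2.59, SE 0.19, limma adjusted p = 0.000245). Cbs, which joins serine to homocysteine in the first step of cysteine synthesis, was 8.43-fold lower (log2 -3.08, SE 0.44, adjusted p = 0.00282), with -2.39 on design 026655 and -4.45 on 028005. Cth, the enzyme of the next step, was well above background on 2 of 3 skin arrays and entered the test through its wound arrays alone. Its log2 difference was 1.45 (adjusted p = 0.0233), or 0.67 under normexp. Normexp adds an offset to every signal, which shrinks the differences of dim genes most. The call of Cth was lost without wound replicate 1 (adjusted p = 0.0836) and without wound replicate 2 (0.0671). Gatm, which joins arginine and glycine on the way to creatine, entered the test through its skin arrays alone, since no wound array measured it. On the processed signal it was at least 2.38-fold lower (adjusted p = 0.00769), a bound set by the lowest signal well above background. That p uses wound values that are not well above background, and under normexp the gene did not pass (-0.51, adjusted p = 0.0851).

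Among 18 genes of proline, glutamate and ornithine 2 were higher, 4 lower, and 12 missed the threshold (median 0.01), with 3 calls in all without skin replicate 1. Got1, the cytosolic aspartate aminotransferase, rose 5.81-fold (log2 2.54, SE 0.17, limma adjusted p = 0.000183), with skin values of 0.75, 0.82 and 1.95 and wound values of 3.58, 3.14 and 4.43. Glul, glutamine synthetase, was 2.62-fold lower (log2 -1.39, SE 0.17, adjusted p = 0.00148), with 3.48, 3.22 and 4.47 in skin and 1.8, 2.15 and 3.05 in wound cells. Gpt2, the mitochondrial alanine aminotransferase, was 2.11-fold lower (log2 -1.08, adjusted p = 0.00863). Odc1, which makes polyamines from ornithine, was higher (log2 0.61, adjusted p = 0.0305) but did not pass with quantile normalization (0.44, adjusted p = 0.105), in the authors' deposited table (0.44, adjusted p = 0.174) or with any array but skin replicate 2 left out (adjusted p from 0.0660 to 0.134). Of the other enzymes of proline, the reductase Pycrl (now Pycr3) had -0.08 (adjusted p = 0.788), Aldh4a1 0.18 (0.377) and Oat, the ornithine aminotransferase, -0.15 (0.593), and none of these passed.

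Carriers of these amino acids also went both ways, where 4 of 17 were higher, 3 lower, and 10 missed the threshold (median 0.10). Both counts lie near the shares over all genes tested, 18.8% higher and 15.3% lower. With only genes above background on all 6 arrays, 3 were called. Slc38a4, a sodium-coupled carrier of neutral amino acids, was measured on 2 of 3 skin arrays and entered the test through its wound arrays alone. Its log2 difference was 4.66 (SE 0.26, limma adjusted p = 0.000114), or 2.81 under normexp. That p uses a skin value that is not well above background. Slc38a1, a carrier of the same family, rose 8.64-fold (log2 3.11, SE 0.27, adjusted p = 0.000429), or by 2.27 with normexp correction and by 2.25 in the authors' deposited table. Slc6a7, a proline transporter, entered through its skin arrays alone, like Gatm, with no wound array well above background. It was at least 3.87-fold lower on the processed signal (adjusted p = 0.000468), a bound that does not hold under normexp (log2 -0.68). Slc25a15, the mitochondrial ornithine carrier, was measured on 2 of 3 wound arrays and entered the test through its skin arrays alone (log2 -0.95, adjusted p = 0.0287). It did not pass under normexp (-0.21, adjusted p = 0.313) or without skin replicate 1 or 2 (adjusted p = 0.0948 and 0.0942).

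Genes of the ATF4 and amino acid response went both ways: of 26 tested, 8 were higher, 8 lower, and 10 missed the threshold (median 0.01). Without wound replicate 1 the calls numbered 10 in all. Atf4 itself was bright, at 7.41, 7.26 and 8.38 in skin and 7.38, 7.03 and 8.31 in wound cells, and its RNA did not pass (log2 -0.11, SE 0.16, limma adjusted p = 0.635, 95% interval -0.50 to 0.28). These arrays measure no protein. Vldlr, a lipoprotein receptor, rose 5.80-fold (log2 2.54, SE 0.15, adjusted p = 0.000128). Fgf21, a secreted hormone measured on 2 of 3 skin arrays, entered the test through its wound arrays alone. It had a difference of 2.25 (SE 0.56, adjusted p = 0.0247), with 0.72 under normexp. Its call was lost without skin replicate 2 (adjusted p = 0.0650), without wound replicate 1 (0.0868) and without either replicate 3 (0.0964). Without skin replicate 1 the difference was 2.93. Stc2, a secreted glycoprotein, was 17.4-fold lower (log2 -4.12, SE 0.35, adjusted p = 0.000385), or -3.51 under normexp and -3.02 on design 028005. Gdf15, a secreted stress hormone, was 5.72-fold lower (log2 -2.52, SE 0.28, adjusted p = 0.000987), or -1.74 on design 028005. Asns and Psat1 were higher on the same arrays on which 8 genes of this list, Vldlr among them, were higher and 8, Stc2 and Gdf15 among them, lower. The part of ATF4 in these values was not tested.

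Of the 20 cytosolic aminoacyl-tRNA synthetases, which load amino acids on transfer RNA, 4 were higher (0 lower, 16 that missed the threshold, median 0.24). That count lies near the share called higher over all genes tested, 18.8%. Gars, which loads glycine, rose 2.58-fold (log2 1.37, SE 0.16, limma adjusted p = 0.00120), with 4.53, 4.36 and 5.60 in skin and 5.99, 5.87 and 6.74 in wound cells. Cars, which loads cysteine, was higher (log2 0.66, adjusted p = 0.0213) and did not pass with quantile normalization (0.51, adjusted p = 0.0507), on design 026655 alone or without either replicate 3 (0.64, adjusted p = 0.0754), or without skin replicate 1 (0.0528), skin replicate 2 (0.0741) or wound replicate 2 (0.0569). The count of calls in this list fell to 1 under quantile normalization and without skin replicate 1, skin replicate 2 or either replicate 3, and to 2 without wound replicate 1. Cell cycle genes were higher for 14 of 22 and lower for 0 (median 1.12), led by Cdk1 (log2 2.55, adjusted p = 0.000267, and 1.41 with the mean of its probes) and Ube2c (log2 2.28, adjusted p = 0.000544). They moved on the same arrays as Psat1, Psph and Mthfd2, and their part in those values was not tested.

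**Figure D4:**
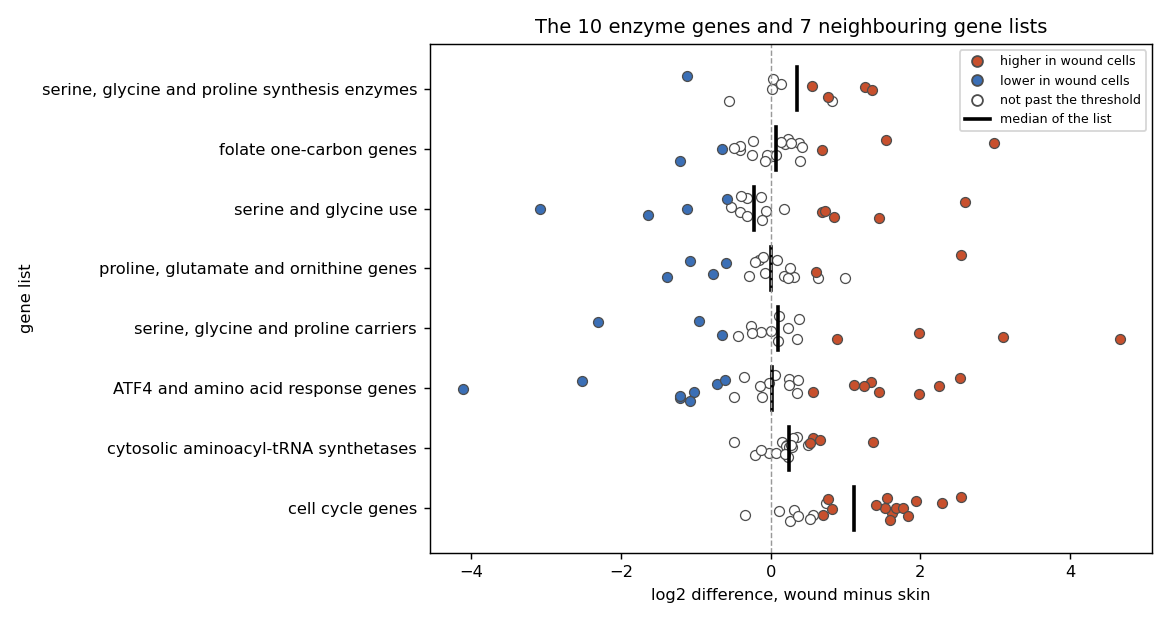
Log2 difference of wound minus skin (horizontal axis) for every tested gene of the 10 enzyme genes and of 7 neighbouring lists, red where higher, blue where lower and open where not past the threshold, with a bar at the median of the list. The medians lie between -0.22 and 0.35 except for cell cycle genes at 1.12, and the ATF4 list has 8 called members on each side.

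**Figure D5:**
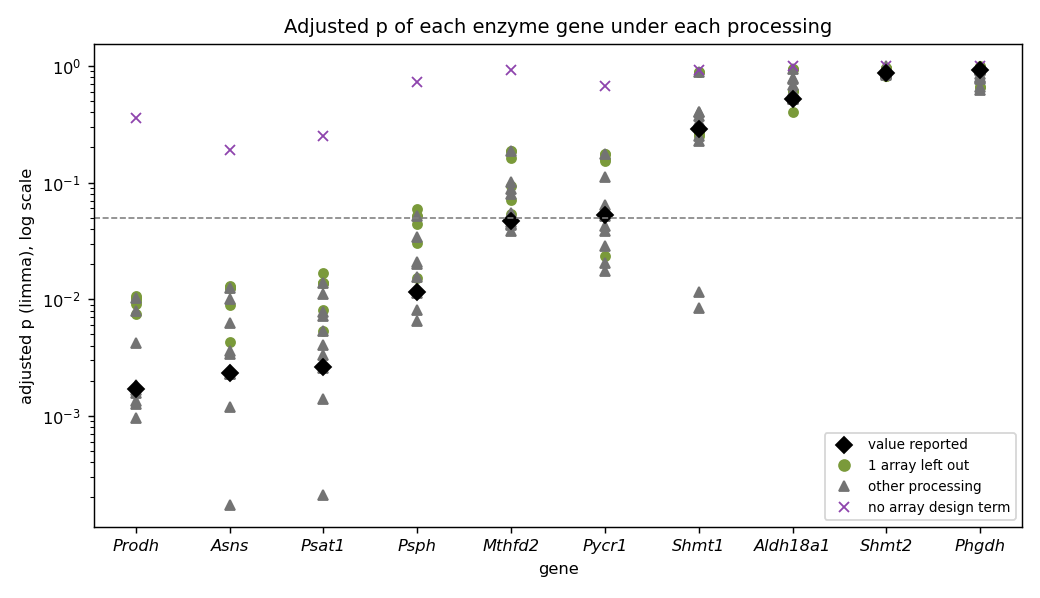
Adjusted p of each enzyme gene (vertical axis, log scale; the dashed line is 0.05) under the model reported (diamonds), with 1 array left out (circles), under other processing (triangles) and with no term for the array design (crosses). Prodh, Asns and Psat1 stay under the line for all but the last, Psph, Mthfd2 and Pycr1 fall on both sides of it, and Shmt1 is under it for the 2 settings that average its probes or use the authors' deposited table.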

How the data were processed

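RNA of 3 skin and 3 wound samples was hybridised to 1-colour Agilent arrays. Scanner files give linear intensity values that the authors extracted with Feature Extraction 10.7.3.1, unscaled between arrays, per the file headers. A gene table of both designs was made by the authors in GeneSpring, per the series' design text, and deposited with no stated scale. It was read as log2 values of the authors, since its wound minus skin differences matched log2 differences of the scanner values (slopes 1.00, 1.00 and 0.981 over 19266 genes). Its column medians are -0.21, -0.25 and -0.25 for skin and -0.28, -0.27 and -0.23 for wound replicates 1, 2 and 3. Genes are centred within each design there, so it gives no levels. For each of the 10 members its difference was that of the mean of all probes less 0.0675, so for them the table and that mean are 1 choice on another scale. For other genes how it combined probes was not settled.

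Control spots and outlier-marked spots (89 to 678 an array) were left out, as were probes lacking a value on an array (1 on design 026655, 527 on 028005), and spots of a probe were averaged. Saturated spots numbered 0. Identifiers of the authors' table, and otherwise RefSeq accessions in a GRCm38.p6 gene table used for names, named 31951 of 39428 and 31732 of 55153 probes. The tested value was log2 processed signal less the 75th percentile of its array, for the brightest probe of each gene and design. A gene was tested if all 3 arrays of a group had it well above background. The test was limma 3.58.1 (R 4.3.3), with array design (also slide and scan) as a term and Benjamini-Hochberg adjustment, leaving 3 residual degrees of freedom, or 6.28 after moderation. The code was checked on simulated data. Normexp used median pixel signals, as the files used here hold no mean signals.

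The members and all gene lists were chosen with earlier results of these data known. Named besides the members are 10 genes set by name and, of each list, the 2 largest called increases and decreases. Some of the genes this rule names are not reported here, though counts over lists include them.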

Additional observations from a re-analysis of the deposited data

How the results depend on the processing

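With no array design term 1781 genes were called, and 0 of the 10 enzyme genes, 1 folate gene, 2 of serine and glycine use, 1 of proline, glutamate and ornithine, 4 carriers, 5 of the ATF4 list, 0 synthetases and 5 cell cycle genes. Psat1 (1.26), Psph (0.77), Mthfd2 (0.56), Asns (1.35) and Prodh (-1.12) then kept their values and lost their calls (limma adjusted p = 0.249, 0.734, 0.922, 0.190 and 0.361). On design 026655 alone 3 enzyme genes, 3 folate genes, 5 of serine and glycine use and 1 synthetase were called. Psph (0.73) and Mthfd2 (0.42) were not called there, and Shmt1 had 0.039. Leaving out either replicate 3 is the same fit and no separate check. Design 028005 alone gave -0.18 for Phgdh, -1.73 for Shmt1, 0.84 for Mthfd2, 1.06 for Pycr1 and 0.38 for Aldh18a1. Folate calls numbered 3 with the mean of probes and 3 in the authors' deposited table, serine and glycine use 4 with no filter, carriers 3 with genes above background on all 6 arrays, and synthetases 1 with quantile normalization and 1 with no filter. Phgdh turned to -0.011 (normexp), -0.057 (detected-probe percentile), -0.055 (quantile), -0.046 (mean of probes), -0.067 (same probe on both designs), -0.11 (authors' deposited table) and -0.0088, -0.067 and -0.062 (each probe alone). Shmt2 turned to -0.0014, -0.044, -0.036 and -0.032 under normexp, detected-probe percentile, quantile and the authors' deposited table. Shmt1 passed with the mean of probes (-1.07), in the authors' deposited table (-1.13) and with probe A_52_P673499 alone (-1.84). Mthfd2 did not pass with the detected-probe percentile (0.48), with no filter (0.56) or in the authors' deposited table (0.49). Pycr1 passed with normexp (0.77), genes above background on all 6 arrays (0.82), the mean of probes (0.89), the authors' deposited table (0.82) and probe A_55_P2169234 alone (0.96). Pycr1 less Prodh was 1.64 with normexp. The fits of single probes were chosen after seeing the data. The cause of these changes was not tested.

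With the replicate number as a block, 5600 genes were called, Mthfd2 (0.56) was no longer called (adjusted p = 0.0551), Pycr1 (0.82) was (0.0173), and no other enzyme gene changed its call. The labels number 2 replicates a group only, and same-numbered arrays of design 026655 deviated together weakly (correlation 0.153), so the numbers were not taken as pairs.

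Leaving out 1 array gave 3775 to 5056 called genes, 3 to 5 enzyme genes, 3 to 5 folate genes, 4 to 6 of serine and glycine use, 3 to 5 of proline, glutamate and ornithine, 5 to 7 carriers, 10 to 13 of the ATF4 list, 1 to 4 synthetases and 12 to 15 cell cycle genes. The differences ranged from -0.045 to 0.12 for Phgdh, 1.11 to 1.38 for Psat1, 0.70 to 0.87 for Psph, -0.74 to 0.039 for Shmt1, 0.02 to 0.06 for Shmt2, 0.42 to 0.66 for Mthfd2, 0.65 to 1.07 for Pycr1, 0.02 to 0.20 for Aldh18a1, 1.22 to 1.49 for Asns and -1.17 to -1.08 for Prodh. Those between genes ranged from -0.02 to 0.79 for Shmt2 less Shmt1, 1.66 to 1.90 for Mthfd2 less Mthfd1, 1.76 to 2.21 for Pycr1 less Prodh and -0.18 to 0.06 for Aldh18a1 less Aldh4a1. Signals near background, as for Shmt1, limit the dim genes.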
